A study of Mus musculus with 18 samples.

Results

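Dendritic cells of KO genotype were compared with WT cells after lipopolysaccharide (LPS), a bacterial outer membrane component sensed by Toll-like receptor 4 (TLR4). The comparison held the 5 libraries labelled KO and LPS and the 5 labelled WT and LPS, chosen by their labels alone, which is 10 of the 18 RNA-seq libraries of the series. Unstimulated cells of both genotypes, 4 WT and 4 KO control libraries, gave the level before stimulation. All 4 groups were mouse bone marrow-derived dendritic cells (BMDC) grown for 7 to 10 days with the cytokines Flt3L, at 100 ng/ml, and GM-CSF, at 20 ng/ml, and every sample was selected on XCR1, either by sorting CD11c+ Xcr1+ cells or with antibody and beads. The labels name neither the deleted gene nor the mouse strain, age, LPS dose or LPS time. They also do not say which selection a sample had, or whether replicates were separate animals or cultures, so that p-values measure the spread between these samples, which may be technical. The title of the series names the balance of STAT5 and STAT3 in dendritic cells as its subject.

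XCR1 marks type 1 conventional dendritic cells (cDC1), which take up dead cells, present their antigens to CD8 T cells and make interleukin-12 (IL-12) when stimulated. LPS acts through TLR4 on NF-kB and MAP kinases, and the cytokines and interferon that follow act back on the cells through JAK kinases and STAT transcription factors. STAT5 works downstream of GM-CSF and induces the inhibitor Cish, and STAT3 works downstream of cytokines such as IL-10 and IL-6 and induces the inhibitor Socs3.

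The 10 LPS libraries held cDC1 RNA: all 18 cDC1 markers of a fixed list were read, with summed levels of 11400 to 12450 CPM (counts relative to the scaled library total) in KO and 12080 to 13440 CPM in WT. WT LPS replicate 2 stood apart. It lay at 29.1 on the first principal component of the LPS libraries, which held 32.9% of the variance, where the other WT libraries lay between -29.0 and -3.01 and the KO libraries between -3.25 and 18.0. Its log2 distance from the rest of its group was 0.490 (root mean square), against 0.245 to 0.336 in the other LPS libraries. Of 38 gene lists, it lay above every other LPS library in the mean level of 28 and below all of them in 2. Markers of monocytes and macrophages summed to 3262 CPM in WT LPS replicate 2 and 3063 CPM in KO LPS replicate 2, against 1950 to 2505 CPM in the other LPS libraries. WT LPS replicate 5 carried neutrophil markers at 101 CPM, against at most 18.4 CPM elsewhere, and erythroid and platelet markers at 30.9 CPM, against at most 16.4 CPM. Lymphocyte markers summed to 10.1 to 12.0 CPM in KO and 6.36 to 9.60 CPM in WT, with Cd3d, Cd3e and Cd3g at 0.204 CPM or less. Of these 17 markers, 14 lay under 1 CPM in every LPS library. Ms4a1, which did not, had medians of 0.151 CPM in WT controls and 2.79 CPM in WT LPS. Whether these markers came from such cells, and the part of such cells in the results, was not tested. In bulk RNA, fewer cells of a type and less RNA per cell cannot be told apart. Counts of called list members are given with all libraries and without WT LPS replicate 2. Where leaving out another library ended a call, that library is written as WT 1 for WT LPS replicate 1, and so on.

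**Figure D1:**
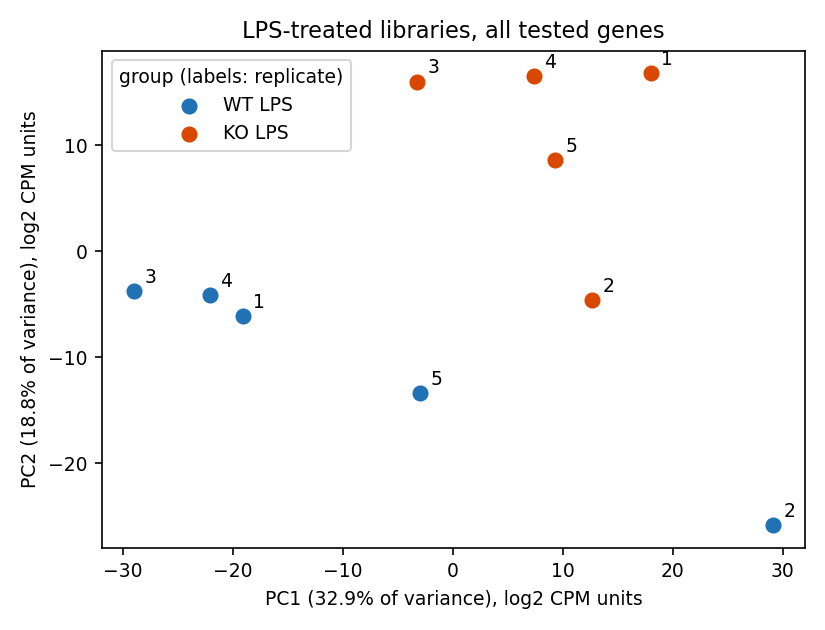
Principal components 1 and 2 of the 10 LPS libraries in log2 CPM units over all tested genes, WT in blue and KO in orange, each point 1 library with its replicate number. WT LPS replicate 2 lies at 29.1 on component 1, beyond every KO library, while the other 4 WT libraries lie at or below -3.01.

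The first question was how many genes differed between the genotypes after LPS, and by how much. The test was the edgeR quasi-likelihood test with Benjamini-Hochberg adjustment, with n = 5 per genotype and the spread taken from all 18 libraries. Of 11989 tested genes, 1294 (10.8%) passed an adjusted p of 0.05 and are named called genes. In KO, 635 of them were higher (5.3% of tested genes) and 659 were lower (5.5%). Most differences were small. A fold under 1.5 held for 537 genes on the higher side and 475 on the lower side, and 17 and 45 had a fold of 2 or more. The median log2 fold change (KO minus WT, as all fold changes here) was 0.31 among the higher genes, -0.44 among the lower genes and -0.02 over all tested genes. Genes called higher were read at a median of 76.4 CPM in WT LPS, those called lower at 17.3 CPM and all tested genes at 18.3 CPM. The 5 KO and 5 WT libraries did not overlap in 312 genes called higher and 329 called lower. Over all tested genes, KO lay wholly above WT in 3.31% and wholly below it in 3.2%.

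Without WT LPS replicate 2, 3344 of 11968 genes were called (27.9%), 1650 higher (13.8%) and 1694 lower (14.2%). Of the genes called with all libraries, 633 of the higher and 647 of the lower ones remained called in the same direction. Without KO LPS replicate 1 the count was 805, and without WT LPS replicate 4 the higher genes numbered 413. A fit of the LPS libraries alone, without the spread of the controls, gave 619 calls, 306 higher and 313 lower. With library totals in place of TMM scaling, 356 genes were higher and 1192 lower, so that 23% of calls were higher against 49.1%.

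**Figure D2:**
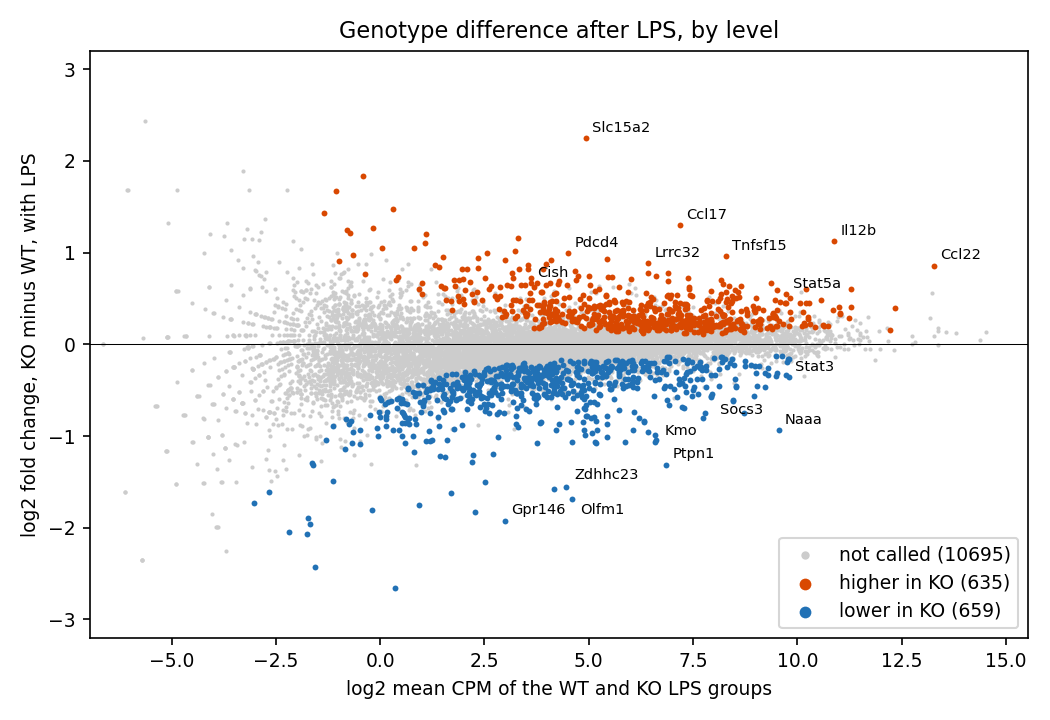
Log2 fold change of KO against WT with LPS (vertical) against the log2 mean CPM of the LPS groups (horizontal), 1 point per tested gene, with 635 called higher genes in orange, 659 called lower genes in blue and the rest in grey. Slc15a2 has a fold change of 2.25 and Gpr146 of -1.92, and most called genes lie between -1 and 1.

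The genes described first are those called with and without WT LPS replicate 2, with at least 10 CPM in an LPS group and no overlap between genotypes. There were 497 such genes, 272 higher and 225 lower in KO, predicted genes and pseudogenes left out. The 14 at the top and the 14 at the bottom of the fold changes hold a peptide transporter, secreted signals, receptors and transcription factors on the KO side. On the WT side they hold membrane and signalling proteins.

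Slc15a2 (gene ID 57738) encodes a proton-coupled peptide transporter that also carries bacterial muramyl dipeptide. Its level was 9.18, 13.4, 9.64, 9.63 and 11.4 CPM in WT LPS replicates 1 to 5 and 40.7, 75.3, 39.4, 43.3 and 53.7 CPM in KO LPS replicates 1 to 5. Every KO library lay above every WT library, as the choice of the set required. The fold change was 2.25 ± 0.16 (SE, adjusted p = 1e-08). The genotypes already stood apart in control cells, at 0.688 CPM in WT and 3.31 CPM in KO, and the difference between the fold changes with LPS and in controls was -0.01 (interaction adjusted p = 0.99).

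Secreted and surface proteins of the immune system followed. Il12b (gene ID 16160), the subunit shared by IL-12 and IL-23, was read at 1256, 1857, 621, 958 and 1257 CPM in WT and at 3420, 2155, 1986, 2868 and 2556 CPM in KO. It rose in KO by 1.13 ± 0.20 (adjusted p = 0.0011), and by 1.34 without WT LPS replicate 2, the highest of the WT libraries. Ccl17 (gene ID 20295), a chemokine for T cells bearing CCR4, was read at 97.3, 110, 59.4, 76.8 and 78.9 CPM in WT and 296, 119, 191, 239 and 191 CPM in KO (1.30 ± 0.20, adjusted p = 0.00024). KO LPS replicate 2 was its lowest KO library, above all WT libraries as the choice of the set required. Tnfsf15 (gene ID 326623), the ligand of death receptor 3, was read at 173, 314, 159, 180 and 234 CPM in WT and 472, 384, 375, 422 and 413 CPM in KO (0.96 ± 0.14, adjusted p = 0.00015). All of these genes except Il12b lay under 2 CPM in the means of both control groups, and Il12b lay at 14.4 CPM in WT and 17.4 CPM in KO. Lrrc32, the docking receptor for latent TGF-beta, was read at 67.2, 50.4, 57.3, 65.2 and 61.9 CPM in WT and 119, 87.8, 116, 118 and 118 CPM in KO (0.89 ± 0.10, adjusted p = 6.9e-06). Csf1, the growth factor of macrophages, rose from 63.1 ± 14.5 to 108 ± 18.7 CPM (SD, n = 5 each), and Tnfrsf8 (CD30) rose from 6.22 ± 1.33 to 12.7 ± 2.42 CPM.

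Pdcd4 (gene ID 18569), an inhibitor of translation initiation, was read at 15.9, 20.2, 11.2, 13.3 and 15.4 CPM in WT LPS and 37.1, 24.8, 26.6, 34.4 and 28.5 CPM in KO LPS (1.00 ± 0.13, adjusted p = 4.7e-05), against control means of 18.9 CPM in WT and 22.7 CPM in KO. The interaction passed, at 0.73 (adjusted p = 0.037). It also passed for the homeobox gene Zfhx2 (1.07), for Niban3 (0.85), for Myb, a transcription factor of blood progenitors (0.80), and for the organic anion transporter Slco4a1 (1.09). The remaining higher genes of this set were the transcription factor Grhl1 (1.16 ± 0.16) and the membrane protein gene Ms4a14 (0.79 ± 0.16).

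Ptpn1 (gene ID 19246), the phosphatase PTP1B that removes phosphate from JAK kinases, had the lowest adjusted p among the named genes. Its level was 170, 156, 167, 162 and 169 CPM in WT and 64.2, 77.2, 59.6, 60.9 and 69.8 CPM in KO (-1.31 ± 0.06, adjusted p = 3.8e-11). Control cells stood at 69.5 CPM in WT and 67.0 CPM in KO, while the means with LPS were 165 ± 5.56 CPM in WT and 66.3 ± 7.22 CPM in KO (SD, n = 5). The interaction was -1.26 (adjusted p = 9.1e-08). Flot1 (gene ID 14251), a scaffold protein of membrane rafts, was read at 26.1, 31.5, 25.5, 25.7 and 25 CPM in WT and 8.70, 9.10, 10.6, 8.07 and 8.42 CPM in KO (-1.57 ± 0.08, adjusted p = 1.6e-10). Zdhhc23, a protein palmitoyltransferase, fell from 32.7 ± 3.13 to 11.1 ± 2.19 CPM (-1.56 ± 0.10). Control levels of WT and KO were 22.4 and 20.4 CPM for Flot1 and 27.7 and 24.8 CPM for Zdhhc23.

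Gpr146 (gene ID 80290), an orphan G protein-coupled receptor, had the lowest fold change of the set. It was read at 13.1, 8.99, 14.8, 13.5 and 12.3 CPM in WT and 3.07, 3.56, 3.95, 2.71 and 3.26 CPM in KO (-1.92 ± 0.12, adjusted p = 3e-09), with control means of 34.0 and 37.2 CPM. Olfm1 (gene ID 56177), a secreted glycoprotein, was read at 33, 35.3, 44.4, 35.0 and 37.5 CPM in WT and 9.01, 13.7, 12.5, 9.77 and 12.3 CPM in KO (-1.69 ± 0.10, adjusted p = 1e-09), with control means of 137 and 151 CPM. In both genes the level with LPS was below that in controls in both genotypes, and further below it in KO. The serotonin receptor Htr7 (-1.08 ± 0.06), the actin regulator Eps8 (-1.08 ± 0.09), the membrane-bending protein Bin2 (-1.06 ± 0.09) and the receptor Gpr171 (-1.01 ± 0.07) fell by similar amounts.

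Marchf1 (gene ID 72925) encodes a ubiquitin ligase that takes MHC class II and CD86 off the cell surface. It was read at 125, 117, 146, 140 and 127 CPM in WT and 54.7, 71.7, 63.5, 60.8 and 62.8 CPM in KO (-1.06 ± 0.07, adjusted p = 3.3e-09). Kmo (gene ID 98256), the kynurenine 3-monooxygenase of tryptophan breakdown, was read at 122, 146, 136, 123 and 131 CPM in WT and 62.2, 68.7, 66.9, 57.6 and 64.9 CPM in KO (-1.04 ± 0.05, adjusted p = 2.2e-10). The 2 genotypes were close in control cells, at 180 and 187 CPM for Marchf1 and 138 and 132 CPM for Kmo. The lower side was completed by the guanine nucleotide exchange factor Plekhg2 (-1.07 ± 0.10), the phospholipid scramblase Plscr1 (-1.06 ± 0.12) and Zc3h12d, an RNase that limits cytokine mRNA (-0.99 ± 0.16). In Zc3h12d, WT LPS replicate 2 stood at 203 CPM against 94.4 to 145 CPM in the other WT libraries, and the fold change was -0.76 without it. The interaction passed for all 14 genes of this lower set, and for 5 of the 14 genes of the higher set. Of all tested genes, 3.82% passed it. The sets were chosen by their difference with LPS, which is part of the interaction, so that the choice itself favoured a pass.

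**Figure D3:**
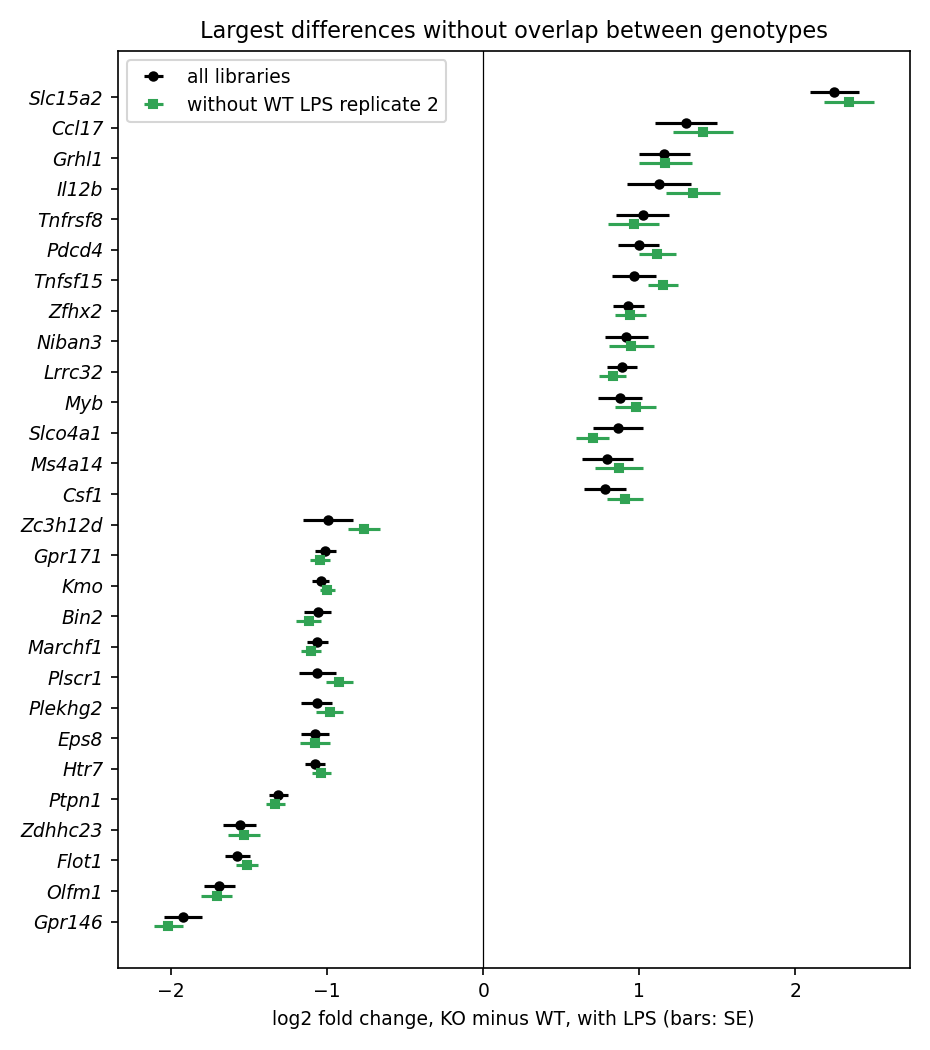
Log2 fold changes with SE of the 14 highest and 14 lowest genes that are called in both fits and do not overlap between genotypes, with all libraries (black circles) and without WT LPS replicate 2 (green squares). The choice of the set required the same side in both fits. Slc15a2 stands alone at 2.25.

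The promoters of 4 of these genes are printed, because each holds the palindrome TTCNNNGAA that STAT dimers bind and the gene's RNA differed between genotypes. They are the windows of the named genes with the largest fold changes that hold the motif, from 250 bases before to 50 bases after the RefSeq start, in gene orientation, on build GRCm38.p6 (the deposited counts use GRCm39). Capitals mark the motif, which reads alike on both strands. The windows are chr5:139380389-139380688 for Gpr146, chr8:94810203-94810502 for Ccl17, chr9:92249944-92250243 for Plscr1 and chr8:65617790-65618089 for Marchf1, all on the plus strand.
Gpr146: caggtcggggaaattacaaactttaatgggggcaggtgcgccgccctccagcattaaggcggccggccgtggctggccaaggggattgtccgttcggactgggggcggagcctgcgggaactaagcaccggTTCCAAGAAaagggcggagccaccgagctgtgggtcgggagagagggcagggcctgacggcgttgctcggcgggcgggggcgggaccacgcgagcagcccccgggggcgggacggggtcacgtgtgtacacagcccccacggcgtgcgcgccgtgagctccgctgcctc
Ccl17: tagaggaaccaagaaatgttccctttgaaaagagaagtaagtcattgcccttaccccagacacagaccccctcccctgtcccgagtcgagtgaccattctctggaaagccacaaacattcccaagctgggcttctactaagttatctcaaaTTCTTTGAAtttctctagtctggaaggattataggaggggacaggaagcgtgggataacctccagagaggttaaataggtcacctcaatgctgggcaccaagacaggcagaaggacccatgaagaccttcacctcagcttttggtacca
Plscr1: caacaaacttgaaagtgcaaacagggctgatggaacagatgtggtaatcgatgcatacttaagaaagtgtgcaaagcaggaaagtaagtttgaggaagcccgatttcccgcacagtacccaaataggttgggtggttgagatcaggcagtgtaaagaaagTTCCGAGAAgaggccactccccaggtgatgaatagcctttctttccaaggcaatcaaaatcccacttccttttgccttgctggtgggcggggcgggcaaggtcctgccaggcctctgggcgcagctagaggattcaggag
Marchf1: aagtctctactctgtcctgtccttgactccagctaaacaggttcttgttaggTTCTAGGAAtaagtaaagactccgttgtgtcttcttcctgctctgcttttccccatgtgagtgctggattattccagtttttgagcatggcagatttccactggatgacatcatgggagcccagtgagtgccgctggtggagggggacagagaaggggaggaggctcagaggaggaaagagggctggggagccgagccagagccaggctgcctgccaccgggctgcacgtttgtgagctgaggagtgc

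The motif begins 119 bases before the start in Gpr146, 99 in Ccl17, 90 in Plscr1 and 198 in Marchf1. Another window of Marchf1, chr8:66386051-66386350, holds TTCAATGAA 3 bases after its start and is not printed. The window of Cish holds 2 such motifs, TTCCTGGAA at the start and TTCTTGGAA 11 bases after it, and that of Socs3 holds TTCTTAGAA 154 bases before the start. Motifs of this form were not particular to the called genes. Of tested genes with a promoter in the table, 8.32% (802 of 9641) held at least 1, against 8.62% (43 of 499) of the genes higher in KO and 9.63% (52 of 540) of those lower in KO. Over single windows of tested genes, of which a gene can have several, the share was 6.92%. A match is a run of letters, and no binding was measured.

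Genes of JAK-STAT signalling moved in both directions. Of 30 tested members, 4 rose, among them Cish, Stat5a and Stat5b, and 4 fell (Ptpn1, Jak3, Socs3 and Stat3), with a median of 0.04 (-0.04 with total-count scaling), and without WT LPS replicate 2, 12 rose and 5 fell. Those called made up 13.3% each way, against 5.3% and 5.5% of all tested genes. Without that library the shares were 40% and 16.7%, against 13.8% and 14.2%. Stat3 was read at 950, 1149, 910, 945 and 1056 CPM in WT and 837, 768, 719, 785 and 799 CPM in KO (-0.36 ± 0.07, adjusted p = 0.0035). Socs3, which blocks cytokine receptors and JAK, was read at 298, 395, 216, 249 and 309 CPM in WT and 236, 189, 166, 197 and 197 CPM in KO (-0.58 ± 0.13, adjusted p = 0.0065). The Stat3 groups did not overlap, and those of Socs3 overlapped through KO LPS replicate 1 and WT LPS replicate 3. On the other side, Stat5a was read at 660, 1018, 503, 572 and 720 CPM in WT and 1320, 786, 871, 1088 and 998 CPM in KO (0.54 ± 0.16, adjusted p = 0.039). Cish was read at 8.51, 13.1, 6.91, 6.98 and 11.6 CPM in WT and 19.1, 10.7, 13.9, 16.6 and 14.2 CPM in KO (0.67 ± 0.17, adjusted p = 0.014). Stat5b rose from 237 ± 38.4 to 308 ± 32.7 CPM (0.38 ± 0.10). Without WT LPS replicate 2, whose values lay within the KO range in Stat5a, Stat5b and Cish, the fold changes were 0.72, 0.48 and 0.81. With any other LPS library left out, 0 to 5 members were higher and 4 to 5 lower, total-count scaling gave 3 higher and 6 lower, and in a fit of the LPS libraries alone the calls of Stat5a, Stat5b and Cish ended (adjusted p = 0.11, 0.065 and 0.079). Both Stat5 calls were also lost without WT 1, 3 or 4 or KO 1 (up to 0.13 and 0.065), that of Stat5a without WT 5 or KO 4 or 5, and that of Cish without KO 1 (0.056). Stat3, Stat5a, Stat5b, Socs3 and Cish did not pass the interaction, and Jak3, the kinase of common gamma chain receptors, passed it (-0.43, adjusted p = 0.042) and fell from 103 ± 9.01 to 57.5 ± 4.34 CPM. Counts per gene cannot show the loss of some exons, so no level here checks the KO label.

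**Figure D4:**
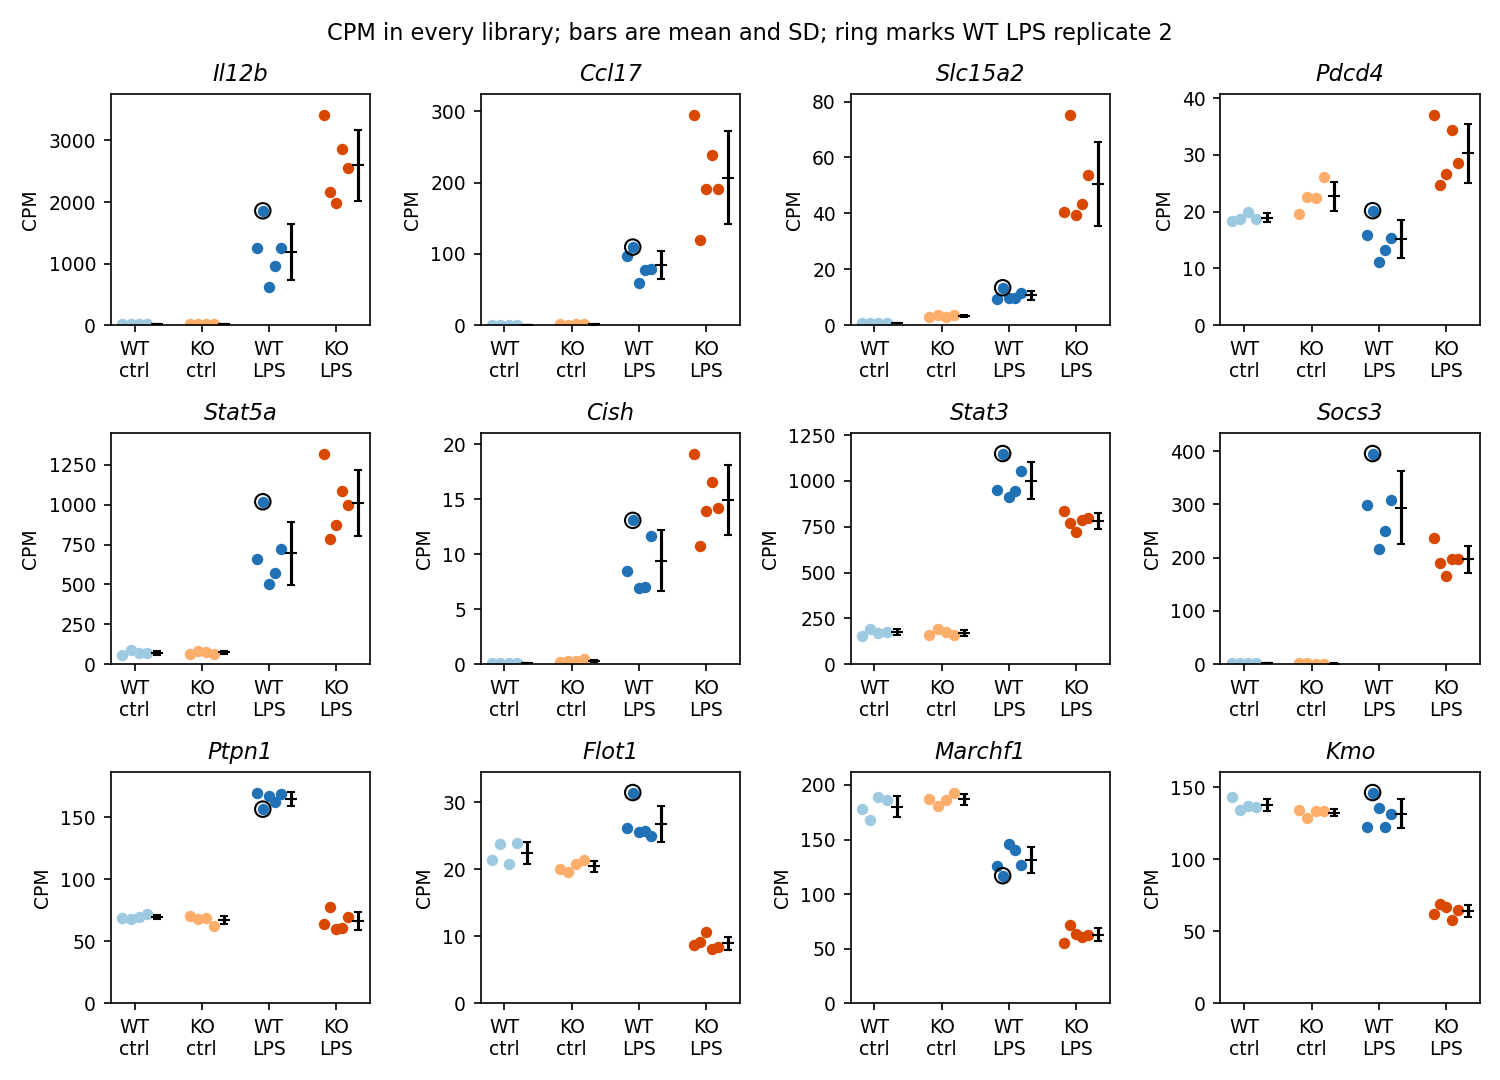
CPM of 12 genes in all 18 libraries, 1 point per library, with group mean and SD as black bars and a ring on WT LPS replicate 2. Il12b, Ccl17, Slc15a2 and Pdcd4 lie higher in every KO LPS than in every WT LPS library, Ptpn1, Flot1, Marchf1, Kmo and Stat3 lie lower, and in Stat5a and Cish the ringed library lies among the KO points.

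Of 19 tested cytokine ligands, 3 rose and 1 fell (median 0.23, or 9 and 1 without WT LPS replicate 2). Beside Il12b and Csf1, Il18, which drives interferon-gamma production, rose by 0.33 ± 0.09, a call lost without WT 1, 3, 4 or 5 or KO 1 or 4 (adjusted p up to 0.09) and in the LPS libraries alone (0.088). Il16, a ligand of CD4, fell from 5.22 to 3.42 CPM. Cytokine receptors moved both ways, with 5 of 35 higher and 8 lower (10 and 11 without that library). The receptor chains Il12rb2, read at 40.2 to 43.4 CPM in WT and 62.0 to 69.4 CPM in KO (0.62 ± 0.08), Tgfbr1 (0.54 ± 0.10) and Il1rap (0.47 ± 0.09) rose. The IL-21 receptor Il21r fell from 194 ± 37.5 to 119 ± 18.7 CPM (-0.70 ± 0.14), the decoy receptor Il1r2 by 0.45 and Il17ra by 0.35 (adjusted p = 0.062 in the LPS libraries alone). Total-count scaling gave 4 higher and 10 lower receptors. Of all tested genes, 10.8% were called, against 37.1% of these receptors and 21.1% of the ligands. Without WT LPS replicate 2, 47.4% of ligands and 28.6% of receptors were higher, against 13.8% of all tested genes. On the lower side it was 5.26% and 31.4%, against 14.2%.

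Chemokines that were called were all higher in KO. They were 5 of 20 tested (8 without WT LPS replicate 2, 3 to 5 with any other LPS library left out), with a median of 0.13. The 5 were 25% of members, against 5.3% of all tested genes, and the 8 were 40%, against 13.8%. Beside Ccl17, its partner as a CCR4 ligand, Ccl22, was read at 7752, 9551, 4899, 5886 and 7422 CPM in WT and 17259, 9347, 10525, 14355 and 12802 CPM in KO (0.86 ± 0.18, adjusted p = 0.0036). KO LPS replicate 2 lay just under WT LPS replicate 2 in Ccl22, and the other 4 KO libraries lay above all WT libraries. Ccl9 rose by 0.77 ± 0.21, a call lost when replicate 1 or 4 of either genotype was left out (highest adjusted p = 0.068). This call was also lost in the LPS libraries alone (adjusted p = 0.098). Both already differed in control means, Ccl22 at 63.9 CPM in WT and 123 CPM in KO, and Ccl9 at 2.51 and 4.65 CPM. The interaction did not pass for Ccl22 (-0.09, adjusted p = 0.9) or Ccl9 (-0.12, adjusted p = 0.91). The membrane-bound chemokines Cx3cl1 (0.60) and Cxcl16 (0.21) completed the count. Among 22 chemotactic receptors and migration genes, 4 fell and 0 rose (5 and 1 without WT LPS replicate 2). Among these were the inflammatory chemokine receptors Ccr1, from 33.5 ± 3.24 to 23.1 ± 2.59 CPM (-0.54 ± 0.08), and Ccr2 (-0.47 ± 0.11, adjusted p = 0.065 in the LPS libraries alone) and the receptor Cxcr4, at 3.85 and 2.68 CPM (-0.51). Of the chemotactic genes, 0 were higher at an unadjusted p under 0.05 in edgeR, and 0 were called higher by DESeq2 or limma-voom. For the chemokines, the same held for the lower side. The chemotactic genes called lower were 18.2% of members, against 5.5% of all tested genes. Without WT LPS replicate 2 the shares were 22.7% and 14.2%.

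Of 30 tested genes of the TNF superfamily, 5 rose and 2 fell (12 and 2 without WT LPS replicate 2). That was 16.7% and 6.67%, against 5.3% and 5.5% of all tested genes. Without that library it was 40% and 6.67%, against 13.8% and 14.2%. Tnf itself was read at 989, 1420, 869, 900 and 1085 CPM in WT and 1516, 1486, 1329, 1450 and 1419 CPM in KO (0.45 ± 0.10, adjusted p = 0.0064). All WT libraries but replicate 2 lay below all KO libraries. The CD30 ligand Tnfsf8, whose receptor Tnfrsf8 is named above, rose from 12.9 to 20.6 CPM (0.67 ± 0.09). The receptors Tnfrsf14 (-0.23) and Ltbr (-0.19) fell. The call of Tnfrsf14 was lost in the LPS libraries alone (adjusted p = 0.055), and that of Ltbr there (0.11), in limma-voom (0.051) and without any LPS library other than WT 2 or KO 3 (up to 0.13). In the B7 family and other ligands of T cells, 5 of 28 rose and 2 fell (11 and 3 without WT LPS replicate 2). The shares were 17.9% and 7.14% with all libraries, and 39.3% and 10.7% without that library. Cd80, which binds CD28 and CTLA-4 on T cells, was read at 115, 154, 112, 116 and 130 CPM in WT and 239, 163, 200, 222 and 215 CPM in KO (0.73 ± 0.10, adjusted p = 9.1e-05). The ICOS ligand Icosl rose from 754 ± 84.9 to 1069 ± 110 CPM and Cd83, a maturation marker, from 1853 ± 325 to 2324 ± 269 CPM. The call of Cd83 was lost without WT 1, 3, 4 or 5 or KO 1, 4 or 5 (adjusted p up to 0.11) and in the LPS libraries alone (0.14). The inhibitory receptor Btla was read at 575 to 636 CPM in WT and 374 to 419 CPM in KO (-0.57 ± 0.04, adjusted p = 5e-08), and its interaction passed (-0.50, adjusted p = 0.00015). With total-count scaling the B7 family held 3 higher and 4 lower genes and its median turned from 0.07 to -0.0035.

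Sensing and signalling genes upstream of these outputs moved both ways. In the TLR pathway and pattern sensors, 8 of 43 rose and 4 fell (12 and 7 without WT LPS replicate 2, 3 to 7 and 4 to 5 with any other LPS library left out). Total-count scaling turned this to 4 higher and 7 lower and the median from 0.07 to -0.0056. With all libraries, 18.6% and 9.3% of members were called higher and lower, against 5.3% and 5.5% of all tested genes. Without WT LPS replicate 2 it was 27.9% and 16.3%, against 13.8% and 14.2%. Sting1, the adaptor for cytosolic DNA sensing, was read at 93.1, 84.2, 110, 96.5 and 86.8 CPM in WT and 51.7, 51.0, 60.2, 53.5 and 54.3 CPM in KO (-0.80 ± 0.07, adjusted p = 1.8e-07). Control cells had 80.0 CPM in WT and 79.8 CPM in KO, and the interaction was -0.80. The inflammasome adaptor Pycard fell from 37.4 ± 7.05 to 20.7 ± 1.94 CPM (-0.85 ± 0.10), and Irak4, the kinase that receives TLR signals through Myd88, fell from 34.1 ± 1.34 to 22.9 ± 1.60 CPM (-0.57 ± 0.05). Cd180, a TLR4-related receptor, rose from 192 ± 9.91 to 266 ± 9.80 CPM (0.47 ± 0.04), and the lysosomal transporter Slc15a3 rose by 0.47 ± 0.10. For Sting1, Pycard, Irak4 and Cd180 the genotypes did not overlap and the interaction passed. The control means of Cd180 were 186 CPM in WT and 180 CPM in KO.

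Among NF-kB proteins and their regulators, 5 of 31 rose and 3 fell (17 and 3 without WT LPS replicate 2, 2 to 8 and 3 with any other LPS library left out). The shares were 16.1% and 9.68% with all libraries, and 54.8% and 9.68% without WT LPS replicate 2. Tnip1 and Tnip2 encode related inhibitors of NF-kB signalling and went opposite ways. Tnip1 was read at 273 to 287 CPM in WT and 337 to 382 CPM in KO (0.40 ± 0.05), and Tnip2 at 48.5 to 54.4 CPM in WT and 36.5 to 39.1 CPM in KO (-0.42 ± 0.04). The level of Bcl3, one of the atypical IkB proteins, was 276 ± 13.5 CPM in KO against 424 ± 21.5 CPM in WT (-0.62 ± 0.07), while Nfkbiz, another one, rose by 0.47 ± 0.13 with overlap between genotypes. Its call was lost when replicate 3 or 4 of WT LPS, or 1 or 4 of KO LPS, was left out (highest adjusted p = 0.09). It was also lost in the LPS libraries alone (adjusted p = 0.1). In MAP kinases and their phosphatases, 3 of 33 rose and 2 fell (8 and 5 without WT LPS replicate 2), led by Dusp5 (0.33), the NF-kB-linked kinase Map3k8 (0.32) and the phosphatase Dusp3 (-0.20). These were 9.09% and 6.06% of members, against 5.3% and 5.5% of all tested genes. Without WT LPS replicate 2 the shares were 24.2% and 15.2%, against 13.8% and 14.2%. Total-count scaling gave 1 higher and 4 lower, and the LPS libraries alone 0 higher. The call of Dusp5 was lost without WT 1, 3, 4 or 5 or KO 1, 4 or 5 (adjusted p up to 0.15). Those of Dusp5 and Map3k8 were lost in the LPS libraries alone (0.13 and 0.079). Immediate early and AP-1 related factors held 6 higher and 5 lower of 31 (8 and 6). Total-count scaling gave 4 and 8. The shares of this list were 19.4% and 16.1% with all libraries, and 25.8% and 19.4% without WT LPS replicate 2. Nr4a3 (0.39) and Zfp36l1 (0.34) were higher, and the call of Nr4a3 was lost without WT 1, 3 or 4 or KO 1, 4 or 5 (adjusted p up to 0.1). That call was also lost in the LPS libraries alone (0.063). The stress gene Ier3, read at 95.7 to 145 CPM in WT and 54.4 to 66.3 CPM in KO (-0.96 ± 0.12), and the transcription factor Cebpb (-0.63 ± 0.12) were lower.

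Transcription factors of the dendritic cell lineage were mostly lower where they were called, with 2 of 30 higher and 7 lower (3 and 10 without WT LPS replicate 2). That was 6.67% and 23.3%, against 5.3% and 5.5% of all tested genes. Without that library it was 10% and 33.3%, against 13.8% and 14.2%. The aryl hydrocarbon receptor Ahr was read at 50.5, 44.0, 43.6, 52.8 and 49.6 CPM in WT and 26.1, 28.4, 21.6, 23.3 and 26.3 CPM in KO (-0.94 ± 0.08, adjusted p = 8.6e-08). Ikzf2 (-0.97 ± 0.13) and Bcl11a (-0.78 ± 0.12), both known from lymphoid and plasmacytoid cells, were lower in every KO library than in every WT library. Rbpj, the DNA-binding partner of Notch, rose by 0.22 ± 0.05, a call lost with total-count scaling (adjusted p = 0.063). On the cell surface, 8 of 34 integrins and adhesion molecules rose and 6 fell (11 and 7), which was 23.5% and 17.6% (32.4% and 20.6%). Cd44 rose from 259 ± 62.7 to 402 ± 42.7 CPM (0.64 ± 0.11) and Itga4 by 0.45. The call of Itga4 was lost without WT 1, 3 or 4 or KO 1 or 5 (adjusted p up to 0.068), and in the LPS libraries alone (0.094). Itgam fell from 85.6 ± 19.3 to 51.2 ± 5.92 CPM (-0.74 ± 0.12), and Itga1 (-0.61) and Itgae (-0.60) fell with it. Among semaphorins, plexins, ephrins and their receptors, 6 of 23 rose and 2 fell (9 and 2), which was 26.1% and 8.7% (39.1% and 8.7%). Sema6d was read at 1208 to 1297 CPM in WT and 1640 to 1951 CPM in KO (0.49 ± 0.06), and the semaphorin receptor Plxnb2 fell from 184 ± 23.9 to 115 ± 14.1 CPM (-0.68 ± 0.10). C-type lectins and Fc receptors held 3 higher and 4 lower of 33, the same numbers without WT LPS replicate 2, with Klrb1b at -0.65 (adjusted p = 0.072 in the LPS libraries alone) and Clec12a at -0.48. These were 9.09% and 12.1% of members in either fit. All tested genes had 5.3% and 5.5%, or 13.8% and 14.2% without WT LPS replicate 2. The folds of Sema6b (-1.83 ± 0.24, from 7.57 to 2.14 CPM) and of the Langerhans cell lectin Cd207 (1.83 ± 0.25, from 0.324 to 1.17 CPM) were larger, at levels under the 10 CPM required for naming.

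**Figure D5:**
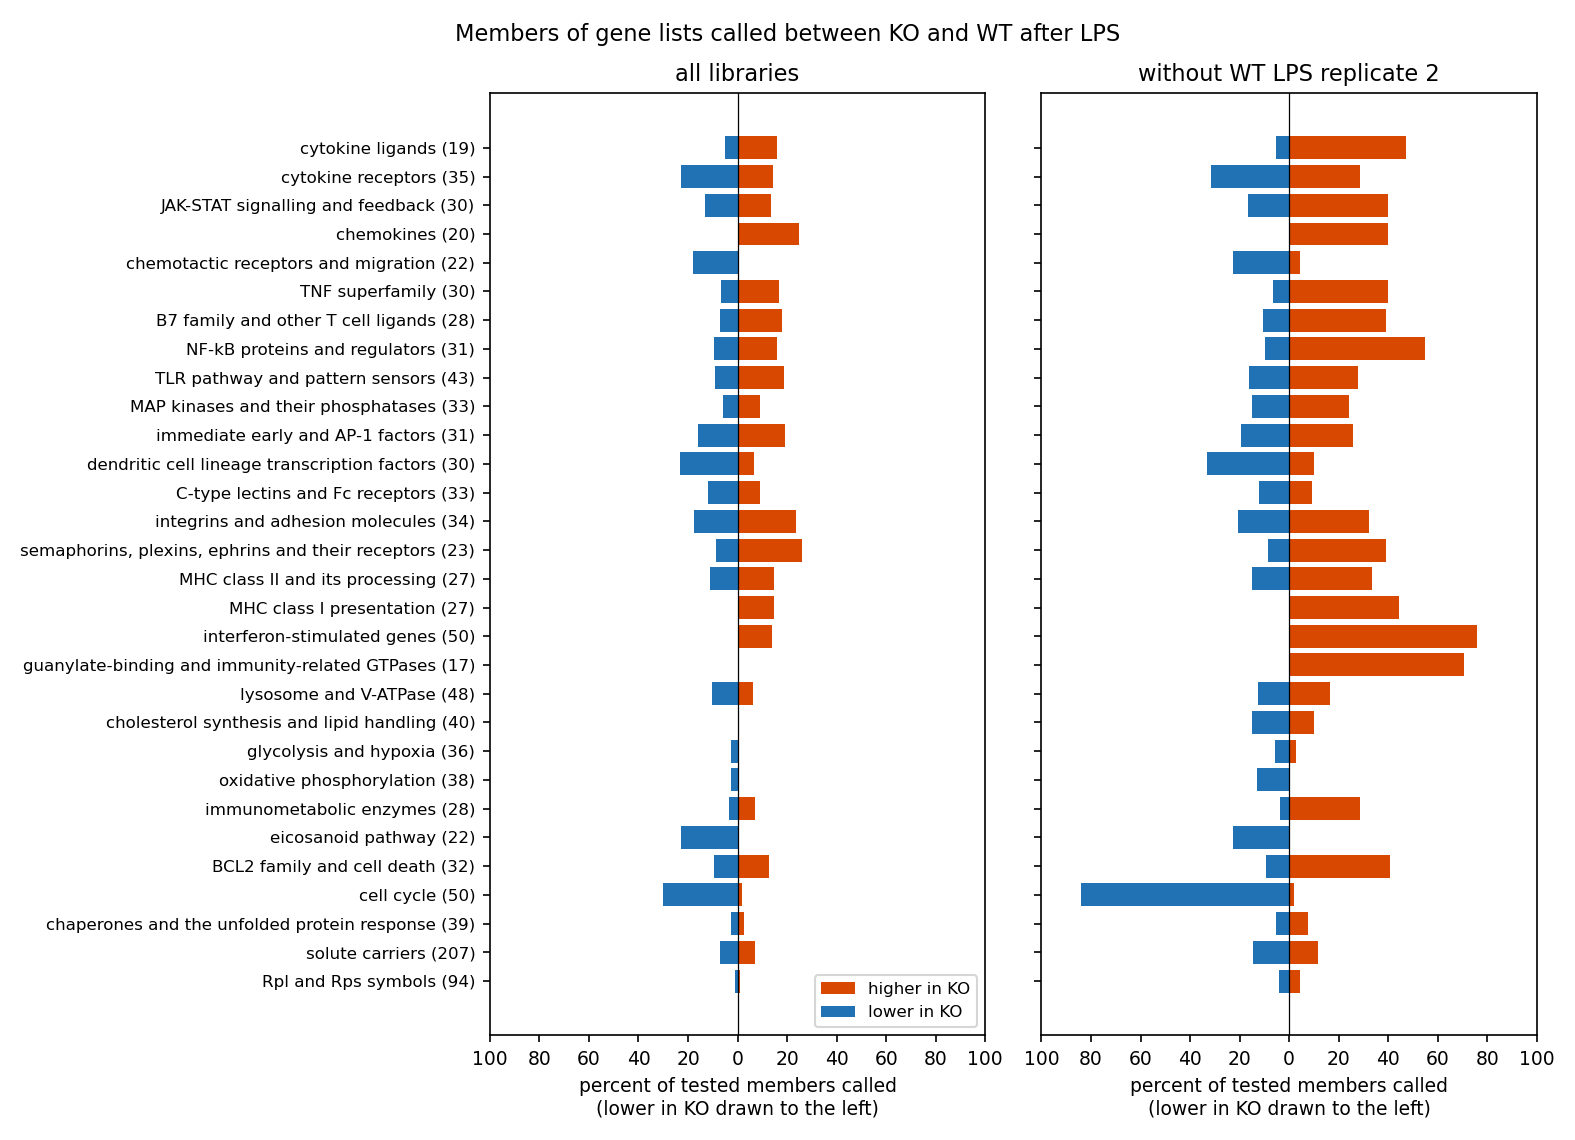
Share of the tested members of each gene list called higher in KO (orange, to the right) or lower in KO (blue, to the left), with all libraries on the left and without WT LPS replicate 2 on the right, the number of tested members in brackets. Interferon-stimulated genes go from 7 to 38 higher of 50 and cell cycle genes from 15 to 42 lower of 50 when that library is left out.

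Of antigen presentation genes, 25.9% of the MHC class II list and 14.8% of the MHC class I list were called, against 10.8% of all tested genes. Without WT LPS replicate 2, 33.3% and 44.4% were called higher, against 13.8% of all tested genes, and 14.8% and 0% lower, against 14.2%. In MHC class II and its processing, 4 of 27 rose and 3 fell (9 and 4 without WT LPS replicate 2). The class II transactivator Ciita rose by 0.38 ± 0.10, a call lost without WT 1 or 4 or KO 1 (adjusted p up to 0.063) and in the LPS libraries alone (0.08), and the ligase Marchf8, a relative of Marchf1, by 0.34 ± 0.06, while Ifi30, a lysosomal thiol reductase, fell from 103 ± 21.8 CPM in WT to 57.0 ± 4.10 CPM in KO (-0.85 ± 0.10). Marchf1 and Marchf8 therefore differed in opposite directions, and the interaction passed for both (-1.12 and 0.51). In MHC class I presentation, 4 of 27 rose and 0 fell (12 and 0), with 0 lower at an unadjusted p under 0.05 in edgeR and 0 called lower by DESeq2 or limma-voom. The peptide transporter genes Tap2 (0.23 ± 0.05) and Tap1 (0.20 ± 0.06), the proteasome activator gene Psme2b (0.37 ± 0.11) and H2-M3 (0.20) made up the count. The call of Tap1 was lost without WT 3 or 4 or KO 1 or 5 (adjusted p up to 0.086), and in the LPS libraries alone (0.13). That of Psme2b was lost without WT 1, 3 or 4 or KO 1, 2, 4 or 5 (up to 0.12). With total-count scaling 1 of these calls was left and the median turned from 0.07 to -0.0041. Reads of Psme2b and of H2 genes may be shared with near-identical genes.

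Interferon-stimulated genes depended on 1 library. With all libraries, 7 of 50 rose and 0 fell (median 0.20), including Slfn9, read at 269 to 406 CPM in WT and 416 to 588 CPM in KO (0.63 ± 0.11), Ifi44 (0.51 ± 0.09) and Oas1g (0.46 ± 0.14), whose call was lost without any LPS library other than WT 2, KO 3 or KO 4 (adjusted p up to 0.095). The call of Oas1g was also lost in the LPS libraries alone (0.12). Without WT LPS replicate 2, 38 rose and 0 fell, with a median of 0.33. The share called higher went from 14% to 76%, while that of all tested genes went from 5.3% to 13.8%. In 49 of the 50 genes this library lay above the other 4 WT libraries, against 4284 of all 11989 tested genes. In 45 it lay above the KO mean, against 5789 of all tested genes. KO lay above those 4 WT libraries in 27 genes (9.8% of all tested genes did), and above all 5 in 4. With any other LPS library left out, 3 to 8 rose and 0 to 1 fell, and with total-count scaling 4 rose and 1 fell. DESeq2 called 9 higher and limma-voom 11, both called 0 lower, and in edgeR 1 was lower at an unadjusted p under 0.05.

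The 17 tested guanylate-binding proteins and immunity-related GTPases are interferon-induced proteins that act on vacuoles of pathogens. With all libraries, 0 were called by edgeR and 3 had an unadjusted p under 0.05, all higher, while DESeq2 and limma-voom each called 2. Without WT LPS replicate 2, 12 rose, 70.6% of members against 13.8% of all tested genes. That library lay above the other WT libraries and above the KO mean in all 17, against 4284 and 5789 of all 11989 tested genes. Ifit3b, an interferon-induced RNA-binding protein gene, shows the pattern in single values, at 26.7, 78.7, 20.8, 24.5 and 37.7 CPM in WT and 74.1, 62.2, 39.9, 55.8 and 56.4 CPM in KO. Its fold change was 0.62 ± 0.26 with all libraries (adjusted p = 0.14) and 1.07 ± 0.15 without WT LPS replicate 2 (adjusted p = 3.7e-05). Ifit1bl1 (1.06), Iigp1 (0.99) and the IL-2 receptor chain Il2ra (0.95) followed among the genes called without that library alone, with adjusted p = 0.12, 0.23 and 0.21 with all libraries. Ifit and Oas genes have near-identical copies, and how shared reads were counted is not stated.

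Cell cycle genes that were called lay mostly lower in KO. Of 50 tested, 15 fell and 1 rose (median -0.40), and 42 fell and 1 rose without WT LPS replicate 2 (median -0.54). The share called lower went from 30% to 84%, while that of all tested genes went from 5.5% to 14.2%. The gene that rose was Cdkn1a, the p21 inhibitor of cyclin-dependent kinases, from 1775 ± 340 to 2350 ± 253 CPM (0.40 ± 0.11). Another inhibitor, Cdkn2d, fell from 24.3 ± 3.50 to 12.7 ± 1.14 CPM (-0.94 ± 0.10), and the mitotic genes Birc5 (-0.59 ± 0.17) and Ccnb2 (-0.57 ± 0.18) fell. The call of Cdkn1a was lost without WT 3 or 4 or KO 1 or 4 (adjusted p up to 0.072). Those of Birc5 and Ccnb2 were lost without WT 1, 3 or 4 or KO 1, 4 or 5 (up to 0.098 and 0.13), Ccnb2 also without KO 2, and both in limma-voom (0.073 and 0.1). Cdkn1a, Birc5 and Ccnb2 were also lost in edgeR on the LPS libraries alone (0.08, 0.11 and 0.13). The mitotic activator Cdc20 was read at 16.6, 4.44, 16.7, 16.7 and 12.4 CPM in WT and 7.58, 7.27, 9.19, 9.22 and 8.42 CPM in KO. WT LPS replicate 2 lay below every KO library and the other WT libraries lay above them. Its fold change was -0.69 ± 0.22 (adjusted p = 0.051), or -0.90 ± 0.10 without that library (adjusted p = 1.8e-06), and the mitotic genes Hmmr and Aurka stood at -0.87 and -0.80 without it (adjusted p = 8.3e-06 and 8e-05, against 0.053 and 0.05 with all libraries). In 45 of the 50 genes WT LPS replicate 2 lay below the other WT libraries, against 4334 of all 11989 tested genes. KO lay below those 4 libraries in 37 (9.61% of all tested genes did). Cell cycle calls on the lower side numbered 3 to 15 with any other LPS library left out, 1 in a fit of the LPS libraries alone, 7 in limma-voom, 23 in DESeq2 and 25 with total-count scaling. The control means of Cdc20 were 46.5 CPM (WT) and 32.0 CPM (KO), and its interaction did not pass (-0.15, adjusted p = 0.84).

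In the BCL2 family and cell death, 4 of 32 rose and 3 fell (13 and 3 without WT LPS replicate 2, 0 to 5 and 3 to 4 with any other LPS library left out). That was 12.5% and 9.38%, against 5.3% and 5.5% of all tested genes. Without WT LPS replicate 2 it was 40.6% and 9.38%, against 13.8% and 14.2%. Total-count scaling gave 1 higher and 6 lower and turned the median from 0.07 to -0.0026, and the LPS libraries alone gave 0 higher and 2 lower. Bcl2l1, the survival factor Bcl-xL, was read at 301, 466, 197, 250 and 318 CPM in WT and 559, 420, 372, 478 and 450 CPM in KO (0.57 ± 0.15, adjusted p = 0.02). WT LPS replicate 2 lay among the KO values, and leaving out replicate 1 of KO LPS or 4 of WT LPS ended the call (highest adjusted p = 0.071). The call also ended in the LPS libraries alone (0.11). The caspase genes Casp2 (-0.45 ± 0.11, adjusted p = 0.077 in the LPS libraries alone) and Casp6 (-1.21 ± 0.10, from 6.51 to 2.81 CPM) and the death-promoting Bad (-0.44 ± 0.08) were the lower genes.

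Of 36 genes of glycolysis and hypoxia, 1 fell (Hk1, -0.37 ± 0.10), and of 38 genes of oxidative phosphorylation, 1 fell (Ndufb10, -0.22 ± 0.06), with 0 higher in either (1 higher and 2 lower, and 0 and 5, without WT LPS replicate 2). The lower genes were 2.78% and 2.63% of members, against 5.5% of all tested genes. Without WT LPS replicate 2 they were 5.56% and 13.2%, against 14.2%. With total-count scaling 6 glycolysis genes and 9 oxidative phosphorylation genes were lower. The call of Hk1 was lost without WT 3 or KO 1 (adjusted p up to 0.059), and that of Ndufb10 without WT 1 or 4 or KO 1, 4 or 5 (up to 0.073). Both were also lost in the LPS libraries alone (0.054 and 0.059). At an unadjusted p under 0.05, edgeR had 1 glycolysis gene and 0 oxidative phosphorylation genes higher, and DESeq2 and limma-voom called 0 higher in both. Among 40 genes of cholesterol synthesis and lipid handling, edgeR and limma-voom called 0 and DESeq2 called 2 higher, with 2 higher and 1 lower at an unadjusted p under 0.05. Without WT LPS replicate 2, 4 rose and 6 fell, 10% and 15% of members, against 13.8% and 14.2% of all tested genes. Eicosanoid genes were called lower in 5 of 22 and higher in 0 (the same without WT LPS replicate 2, 2 to 5 lower with any other LPS library left out). The 5 were 22.7% of members, against 5.5% of all tested genes, or 14.2% without WT LPS replicate 2. Alox5ap, which hands arachidonic acid to 5-lipoxygenase, fell from 100 ± 13.1 to 77.9 ± 11.2 CPM, the leukotriene receptor Cysltr1 by 0.53 and the leukotriene hydrolase Lta4h by 0.23. These calls were lost without KO 1 or WT 3 (adjusted p up to 0.053, 0.087 and 0.11), those of Cysltr1 and Lta4h also without WT 4 or KO 4, Cysltr1 without KO 5 and Lta4h without WT 1. Alox5ap, Cysltr1 and Lta4h were also lost in the LPS libraries alone (0.078, 0.11 and 0.14). The other two were read at low levels, the prostaglandin E2 receptor Ptger2 at 1.59 ± 0.185 CPM in KO against 4.92 ± 0.615 CPM in WT (-1.62 ± 0.11, adjusted p = 8.5e-09) and the phospholipase Pla2g4a at 2.05 and 1.17 CPM (-0.81 ± 0.15). In this list 0 genes were higher at an unadjusted p under 0.05 or in DESeq2 or limma-voom. Beside Kmo, the immunometabolic enzyme Nampt, which makes an NAD precursor, rose by 0.27 ± 0.08, a call lost without any LPS library other than WT 2 or KO 2 (adjusted p up to 0.1). The call of Nampt was also lost in the LPS libraries alone (0.097). Of 207 tested solute carriers, 15 rose and 15 fell, 7.25% each way (24 and 30, 11.6% and 14.5%, without WT LPS replicate 2), near the shares of all tested genes, and total-count scaling gave 8 and 21. The named ones had Slc15a2 at 2.25 and Slc12a9 at -0.84 ± 0.09 as the highest and the lowest. Of 94 tested genes with Rpl or Rps symbols, a set that includes kinases named Rps6k, 1 rose and 1 fell (4 and 4 without WT LPS replicate 2), while total-count scaling gave 0 higher and 14 lower. The calls were 1.06% of members each way, against 5.3% and 5.5% of all tested genes. Without WT LPS replicate 2 they were 4.26% each way, against 13.8% and 14.2%.

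Lysosomal genes held 3 higher (6.25%) and 5 lower (10.4%) of 48, against 5.3% and 5.5% of all tested genes (8 and 6 without WT LPS replicate 2). Without that library the shares were 16.7% and 12.5%, against 13.8% and 14.2%. With total-count scaling 0 were higher and 9 lower, and the median went from 0.0045 to -0.075. The subunits Atp6v0d1 (0.21) and Atp6v1b2 (0.17) of the proton pump rose, calls lost with total-count scaling (adjusted p = 0.063 and 0.11). Leaving out WT 3, 4 or 5 or KO 1 or 4 also ended both (up to 0.078 and 0.089), and WT 1 or KO 2 that of Atp6v1b2. Both ended in the LPS libraries alone too (0.085 and 0.14). Naaa, a lysosomal amidase and cDC1 marker, was read at 941, 939, 1101, 1013 and 935 CPM in WT and 409, 596, 568, 477 and 522 CPM in KO (-0.94 ± 0.08, adjusted p = 1.2e-07). In chaperones and the unfolded protein response, 1 of 39 rose and 1 fell, 2.56% each way (3 and 2 without WT LPS replicate 2). These were sensors of that response, Ern1 (0.32 ± 0.09, lost without WT 1, 3 or 4 or KO 1, 4 or 5, adjusted p up to 0.11) and Atf6, read at 451 to 688 CPM in WT and 291 to 352 CPM in KO (-0.75 ± 0.09). The call of Ern1 was also lost in the LPS libraries alone (0.075).

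Of the 18 cDC1 markers, 3 rose and 6 fell (3 and 8 without WT LPS replicate 2). That was 16.7% and 33.3%, against 5.3% and 5.5% of all tested genes. Without that library it was 16.7% and 44.4%, against 13.8% and 14.2%. Xcr1, on which the cells were selected, was read at 408, 388, 465, 431 and 450 CPM in WT and 240, 273, 306, 289 and 295 CPM in KO (-0.61 ± 0.06, adjusted p = 1.4e-06). It was also lower in KO control cells, at 109 CPM against 175 CPM in WT, and its interaction did not pass (0.07, adjusted p = 0.7). Btla, Itgae, Batf3, Naaa and Gcsam (-0.70 ± 0.10) fell, while the adhesion molecule Cadm1, read at 96.9 to 126 CPM in WT and 139 to 167 CPM in KO (0.46 ± 0.06), Cd8a (0.53 ± 0.13) and Cd24a (0.21 ± 0.06) rose. The call of Cd24a was lost without WT 1, 3 or 4 or KO 1, 4 or 5 (adjusted p up to 0.074). Those of Cd24a and Cd8a were lost in the LPS libraries alone (0.11 and 0.062). The markers Clec9a, Irf8, Wdfy4 and Id2 were not called (adjusted p = 0.41, 0.098, 0.75 and 0.14). Of markers of other cells, 0 of 8 cDC2 markers rose and 2 fell (Itgam and Clec12a), the same numbers without WT LPS replicate 2. The 2 were 25% of members, against 5.5% of all tested genes, or 14.2% without WT LPS replicate 2. Of 18 monocyte and macrophage markers, 0 rose and 1 fell (Ccr2) with all libraries, and 2 rose and 1 fell without WT LPS replicate 2, where the median went from -0.04 to 0.16. At an unadjusted p under 0.05, 1 was higher in edgeR, and DESeq2 and limma-voom each called 1 higher. Apoe and Cd68 stood at 1228 and 187 CPM in WT LPS replicate 2 and at 955 and 172 CPM in the highest KO library.

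The last comparison asked whether the genotype difference itself changed with stimulation. The interaction of genotype and LPS, fitted in the same model on all 18 libraries, was called for 458 of 11989 genes (3.82%), 124 higher (1.03%) and 334 lower (2.79%) in KO with LPS relative to control. Among the 147 genes named by the rules here, 59 passed, 13 higher and 46 lower. Most of the 147 were chosen by their difference with LPS, which is part of the interaction, so that the choice favoured a pass. Ptpn1, Olfm1 and Htr7 had the lowest adjusted p of the 59 (9.1e-08, 1e-07 and 1e-07), followed by Gpr146 and Flot1. The interaction did not pass for Il12b (0.85, adjusted p = 0.15), Ccl17 (-0.10, adjusted p = 0.94) and Tnfsf15 (0.77, adjusted p = 0.4). Ifi44 gave an interaction opposite to its LPS difference (-1.32, adjusted p = 0.0066), with control means of 0.371 CPM in WT and 1.34 CPM in KO. Without WT LPS replicate 2 the interaction was called for 1501 genes, and without WT control replicate 3 for 208.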

How the data were processed

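RNA-seq was measured in 18 libraries. The authors deposited, per the file headers, estimated counts, TPM and FPKM per gene, and the counts were used here, rounded to whole numbers (6.37% of values were not whole within 0.001). HISAT, Bowtie2 and build GRCm39 are named, per the submitters' processing notes. For versions, annotation and counter, the answer is not given in the sources used here. TPM and FPKM, as deposited, were left aside.

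Totals ran from 25590104 to 27375189 estimated counts per library, and the biological coefficient of variation was 0.0934. The quasi-likelihood test of edgeR 4.0.16 (R 4.3.3) was fitted with 1 mean per group on all 18 libraries, with TMM scaling and filterByExpr (minimum count 10, minimum total 15), which left 11989 of 16614 genes. P-values were adjusted by Benjamini-Hochberg over all tested genes and called under 0.05. CPM values are scaled by TMM. The SE of a fold change was derived from the test, as its absolute value divided by the square root of the F statistic. DESeq2 1.42.0, limma-voom (limma 3.58.1), other scalings, no filter, fewer libraries and blocks were alternatives. The fit was tested on simulated data.

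The comparison and the 38 gene lists were chosen with earlier results of these data known. Genes named were 5 STAT genes (Stat3, Stat5a, Stat5b, Socs3, Cish), the 14 highest and 14 lowest with non-overlapping groups, up to 3 per direction in each list with at least 10 CPM, and 4 per direction called without WT LPS replicate 2 only. Other list members with values were named after these were seen, in lists with few calls or for their fold. By gene ID, 11920 tested genes matched RefSeq. Some list members that were called are not reported here by name.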

Additional observations from a re-analysis of the deposited data

Results flagged for a closer look

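Of 294 groups of 5 LPS libraries, 1 for each genotype and named gene, 13 held a library far from the other 4, where chance gives about 1 in 20. These were WT LPS replicate 2 in 6, KO LPS replicate 2 in 5 and KO LPS replicate 3 in 2. WT LPS replicate 2 stood low in Slco4a1 (4.19 CPM), Dusp3 (42.3 CPM) and Cdkn2d (18.1 CPM), and high in Flot1 (31.5 CPM), Tap2 (1174 CPM) and Scarb2 (296.6 CPM). KO LPS replicate 2 stood low in Lrrc32 (87.8 CPM), Slco4a1 (11.8 CPM), Tnip1 (337 CPM) and Bbc3 (46.8 CPM), and high in Scarb2 (314 CPM). KO LPS replicate 3 stood high in Ltbr (45.1 CPM) and Hmmr (8.25 CPM).

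For 59 named genes the genotype difference with LPS differed from that in control cells by the interaction test of edgeR (adjusted p under 0.05). Values are the log2 fold change (KO minus WT) with LPS minus that in control. The 13 genes with a positive value were Pdcd4 (0.73), Zfhx2 (1.07), Niban3 (0.85), Myb (0.80), Slco4a1 (1.09), Tgfbr1 (0.57), Tnfsf8 (0.46), Tnip1 (0.37), Cd180 (0.52), Mafk (0.24), Cd36 (0.27), Sema6d (0.35) and Marchf8 (0.51). Negative values were found for Gpr146 (-2.05), Olfm1 (-1.83), Flot1 (-1.44), Zdhhc23 (-1.40), Ptpn1 (-1.26), Htr7 (-1.26), Eps8 (-1.23), Plekhg2 (-0.86), Plscr1 (-0.81), Marchf1 (-1.12), Bin2 (-1.15) and Kmo (-0.98). Below 0 lay also Gpr171 (-1.0), Zc3h12d (-1.02), Il21r (-1.07), Il1r2 (-0.46), Jak3 (-0.43), Ccr1 (-0.55), Ccr2 (-0.63), Btla (-0.50), Cd244a (-0.51), Tnip2 (-0.43), Pycard (-0.96) and Sting1 (-0.80). The same side held Irak4 (-0.54), Dusp3 (-0.29), Ier3 (-0.97), Zfp36l2 (-0.59), Ikzf2 (-1.18), Ahr (-0.82), Bcl11a (-0.94), Klrd1 (-0.90), Ifi30 (-0.91), Ifi44 (-1.32), Naaa (-1.09) and Ppt1 (-0.40). Further genes below 0 were Ndufb10 (-0.32), Alox5ap (-0.57), Casp2 (-0.54), Cdkn2d (-0.65), Atf6 (-0.72), Gcsam (-1.06), Kit (-0.48), Slc12a9 (-0.77), Slc41a1 (-0.75) and Slc44a2 (-0.39).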

How the results depend on the processing

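Counts of called genes moved with the libraries and the fit. Among the 147 genes named by the rules, no called gene changed sign under the alternatives run. Other list members named here were not followed in this way. With total-count scaling the LPS comparison gave 356 higher and 1192 lower genes, and the median over all genes shifted by -0.0822, so that changes are read relative to it. The LPS libraries alone gave 619 calls, 306 higher and 313 lower. DESeq2 gave 999 higher genes for the LPS comparison, and 813 calls with 382 higher for the interaction. Leaving out 1 library at a time gave 805 to 3344 calls in the LPS comparison, 386 to 1650 higher and 419 to 1694 lower. For the interaction the same gave 208 to 1501 calls, 44 to 536 higher and 164 to 965 lower. Of 147 named genes, the side of the threshold held for 144 in DESeq2, 146 with its size factors, 141 in limma-voom, 142 without a filter, 130 with total-count scaling and 102 in the LPS libraries alone. The cause was not tested. Same-numbered WT and KO libraries had correlations of deviations of 0.00923, 0.187, 0.353, 0.0605 and 0.0710. KO LPS replicates 2, 3 and 5 correlated best with the WT library of their own number, and KO LPS replicates 1 and 4 did not. The labels do not say whether same-numbered libraries share more than a number, and these correlations cannot decide it. The replicate number as a replicate block was fitted on the LPS libraries alone. It gave 752 calls in the LPS comparison, 369 higher and 383 lower, against 619 in these libraries without the block. With the block 111 named genes kept their side, against 102 without it. With runs of library numbers as the replicate block the interaction gave 882 calls, 250 higher and 632 lower. Genes near 1 CPM are limited by depth.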
